A study of Mus musculus with 6 samples.

Results

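The p200 genes are a family of interferon-inducible genes that lie side by side on mouse chromosome 1. The set described here holds 7 of them, Ifi203, Ifi204, Ifi205, Ifi206, Ifi208, Ifi209 and Aim2, out of 19939 genes measured on whole-transcript Affymetrix arrays. The members were taken by name, each through its probe set of highest mean over the 6 arrays that names that gene alone. For 6 of the 7 such a probe set existed, and Ifi204 was read from a probe set that also names Ifi211. The set was selected on the values of this same comparison, Cre-ERT2 against ERT2, so the levels of its members are given as a description. The members were part of the fit over all genes, and their calls in it are likewise a description and not a test of the set.

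The cells were mouse pre-B acute lymphoblastic leukaemia cells driven by the BCR-ABL1 fusion kinase, from the C57Bl/6 strain, with the genotype Bcor fl/Y, which means that the X-linked Bcor gene is floxed in its single copy. The comparison was between cells transduced with PMIP-CRE-ERT2, which encodes a tamoxifen-activated Cre recombinase, and cells transduced with PMIP-ERT2, which lacks Cre, with 3 arrays of each. Both were puromycin-resistant and had 4OH-Tamoxifen at 0.5 micromolar for 2 days, so the ERT2 cells shared the drug, the vector backbone and the floxed allele. Active Cre and any deletion of Bcor that it makes were confined to the Cre-ERT2 cells, so the effects of each cannot be told apart here. The labels do not say whether the 3 arrays of a group came from separate cultures, so the spread between them may be technical.

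p200 proteins pair an N-terminal pyrin domain, through which they bind other pyrin-domain proteins, with a C-terminal HIN domain that binds double-stranded DNA. Not every member carries both. AIM2 is the best understood: on binding DNA in the cytosol it recruits the adaptor ASC, encoded by Pycard, which activates caspase-1 in an inflammasome. The genes are induced by type I interferon, and many are most highly expressed in blood cells.

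The promoters of the genes are given first because they show how closely some of the genes are related. RefSeq start sites on GRCm38.p6 were matched by symbol for 6 of the 7 members and for 12 of 13 protein-coding p200 genes in all, and each window runs from 250 bases before the start site through the first 50 transcribed bases. Ifi208, Ifi206 and Ifi213 are shown because their windows are near-copies of each other, Ifi209 and Ifi214 because they form another close pair in the same stretch of the chromosome, and Ifi203, from the one of its 2 windows that holds a match, for contrast. Capitals mark matches to a core of the interferon-stimulated response element, spelled GAAA, any 2 bases, GAAA.
Ifi208 (chr1:173673415-173673714, plus strand): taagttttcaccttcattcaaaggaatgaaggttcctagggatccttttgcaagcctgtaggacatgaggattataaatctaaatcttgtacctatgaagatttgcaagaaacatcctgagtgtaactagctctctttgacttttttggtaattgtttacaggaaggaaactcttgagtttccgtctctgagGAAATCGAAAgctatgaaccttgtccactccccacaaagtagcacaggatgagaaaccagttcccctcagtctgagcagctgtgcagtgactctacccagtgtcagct
Ifi206 (chr1:173491269-173491568, minus strand): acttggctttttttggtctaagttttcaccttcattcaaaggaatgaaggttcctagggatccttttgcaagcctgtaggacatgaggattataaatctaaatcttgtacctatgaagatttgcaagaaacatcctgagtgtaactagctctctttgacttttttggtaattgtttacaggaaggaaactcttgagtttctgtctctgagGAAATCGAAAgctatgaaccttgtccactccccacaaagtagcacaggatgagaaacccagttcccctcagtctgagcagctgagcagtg
Ifi213 (chr1:173599223-173599522, minus strand): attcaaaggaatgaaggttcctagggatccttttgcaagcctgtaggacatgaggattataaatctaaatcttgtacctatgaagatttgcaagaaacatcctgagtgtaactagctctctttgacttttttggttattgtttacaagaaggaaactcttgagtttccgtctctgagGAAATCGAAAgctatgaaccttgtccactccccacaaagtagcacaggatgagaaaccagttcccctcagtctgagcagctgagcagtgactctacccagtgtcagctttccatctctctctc
Ifi209 (chr1:173630609-173630908, plus strand): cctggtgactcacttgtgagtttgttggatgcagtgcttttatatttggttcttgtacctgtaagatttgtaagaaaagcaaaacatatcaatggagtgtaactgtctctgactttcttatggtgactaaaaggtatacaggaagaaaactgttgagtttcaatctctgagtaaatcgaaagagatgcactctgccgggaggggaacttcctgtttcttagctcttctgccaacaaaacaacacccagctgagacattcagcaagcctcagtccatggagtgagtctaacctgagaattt
Ifi214 (chr1:173535908-173536207, minus strand): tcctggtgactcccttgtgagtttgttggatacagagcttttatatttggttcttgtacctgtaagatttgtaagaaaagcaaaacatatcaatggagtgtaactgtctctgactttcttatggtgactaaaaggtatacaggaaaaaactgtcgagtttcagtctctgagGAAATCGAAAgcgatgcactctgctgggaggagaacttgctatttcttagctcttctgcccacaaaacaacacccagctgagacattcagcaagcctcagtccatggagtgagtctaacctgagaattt
Ifi203 (chr1:173942443-173942742, minus strand): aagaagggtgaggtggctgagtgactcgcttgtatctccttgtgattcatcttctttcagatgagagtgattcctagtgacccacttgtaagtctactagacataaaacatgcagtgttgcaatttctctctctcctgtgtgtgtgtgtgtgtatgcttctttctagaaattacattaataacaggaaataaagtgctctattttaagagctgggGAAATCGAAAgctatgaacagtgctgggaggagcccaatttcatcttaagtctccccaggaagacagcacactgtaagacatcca

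Between the windows of Ifi208 and Ifi213, 94.0% of the 300 bases were identical in a global alignment. Ifi208 and Ifi206 had 93.0% in common, and Ifi206 and Ifi213 had 87.7%. Ifi209 and Ifi214 were 95.7% identical to each other and 67.7% and 68.0% identical to Ifi208. Outside this stretch, Ifi203 and Mndal shared 94.0%, by their most alike pair of windows, and Ifi207 and Ifi211 shared 87.0%. The other 60 pairs of p200 windows lay between 56.3% and 68.0%. Windows of the unrelated neighbours Cadm3, Fcer1a and Ackr1 reached at most 62.3% against the p200 genes, within the range of those 60 pairs. The plot of promoter identity shows these 6 close pairs as isolated bright squares.

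**Figure D1:**
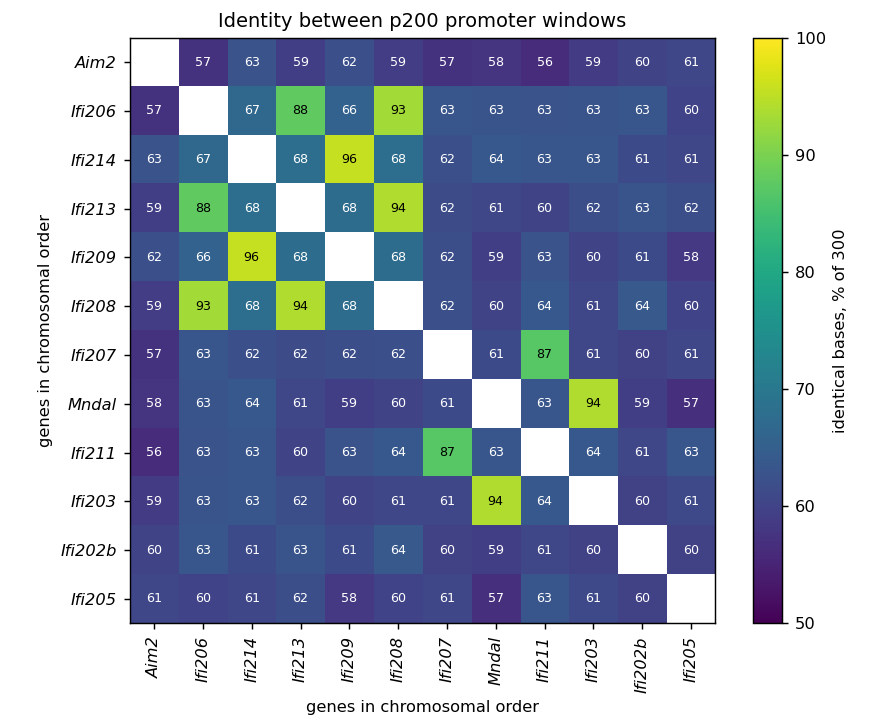
Share of identical bases, as a percent of 300, between the promoter windows of 12 p200 genes in chromosomal order on both axes; for a gene with 2 windows the most alike pair was taken. Related sequences at different distances from the start site score lower. Ifi206, Ifi213 and Ifi208 form 1 group at 87.7% to 94.0%, Ifi214 and Ifi209 a pair at 95.7%, and Aim2 reaches at most 62.7% with any other gene.

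This core, searched on both strands, occurred in 9 of the 12 p200 genes and in 4 of the 6 members with a window (Ifi206, Ifi208, Ifi203 and Ifi205). It occurred in 3.44% of all 32851 promoter windows of this length. In 7 of the p200 genes the match was the same 10 letters, GAAATCGAAA. Only 16 of all 32851 windows, 0.0487%, held those letters, and 7 of the 16 were p200 windows. The letters were taken from the Ifi208 window itself, and several of the 7 windows are near-copies of each other. The 7 are therefore not independent, and the count is not read as an enrichment. The match started 58 bases before the start site in Ifi208, 40 in Ifi206, 73 in Ifi213, 79 in Ifi214 and 35 in Ifi203. In Ifi209, the closest stretch started 79 bases before the start site and differed by G1T, counted from 1 at the 5′ end of the 10 letters. Neither Aim2 nor Ifi209 held the core in these windows. These letter matches describe the sequence and do not show that a factor binds there.

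Of the 7 members, 3 were lower in Cre-ERT2 cells, with no overlap between the groups, and 4 overlapped. Among all genes, 20.3% were apart with Cre-ERT2 lower. Ifi208, also named Pydc3, showed the largest difference, with log2 values of 8.15, 8.06 and 7.96 in the Cre-ERT2 arrays, against 9.26, 8.95 and 9.31 in the ERT2 arrays. Every Cre-ERT2 array was below every ERT2 array, the lowest ERT2 value being that of replicate 2. The means were 8.06 ± 0.0935 in Cre-ERT2 and 9.17 ± 0.193 in ERT2 cells (SD, n = 3 each), a log2 difference of -1.12 (SE 0.0916), which left the Cre-ERT2 level at 46.1% of the ERT2 level. In RNA from whole cultures, fewer cells of a type cannot be told apart from less RNA per cell.

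Ifi206 had 7.24, 7.37 and 7.24 in the Cre-ERT2 arrays, against 7.61, 7.87 and 7.76 in the ERT2 arrays. The groups did not overlap, and the log2 difference was -0.46 (SE 0.0698), or 72.6% of the ERT2 level. Ifi209, listed as the mouse Pyhin1 gene in the gene table, had 10.74, 10.80 and 10.63 in the Cre-ERT2 arrays, against 11.15, 11.11 and 11.05 in the ERT2 arrays. It too was lower in every Cre-ERT2 array, by -0.38 (SE 0.0518), or 76.7% of the ERT2 level.

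In the other 4 members the groups overlapped, and no difference was larger than 0.08 log2 units in size. Aim2, the cytosolic DNA sensor, had 11.21, 11.25 and 11.03 in the Cre-ERT2 arrays, against 11.19, 11.17 and 11.09 in the ERT2 arrays. Its lowest and highest values both came from Cre-ERT2 arrays, and the log2 difference was 0.01 (SE 0.0621). Ifi203 had 12.86, 12.88 and 12.77 in Cre-ERT2 arrays, against 12.91, 12.89 and 12.84 in ERT2 arrays, a difference of -0.05 (SE 0.0447).

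The probe set of Ifi204, the mouse gene listed with the synonym Ifi16 and related to the human DNA sensor IFI16, cannot separate Ifi204 from Ifi211. It had 7.76, 7.86 and 7.81 in Cre-ERT2 arrays, against 7.74, 7.77 and 7.66 in ERT2 arrays, and the groups overlapped slightly (difference 0.08, SE 0.0450). Ifi205 had 5.30, 5.36 and 5.08 in Cre-ERT2 arrays, against 5.26, 5.32 and 5.22 in ERT2 arrays, a difference of -0.02 (SE 0.0703). Ifi204, Ifi205 and Ifi206 were among the dimmest 30% of genes by mean value, and the arrays' detection limits are not known here, so an absence of signal cannot be told from a low level.

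**Figure D2:**
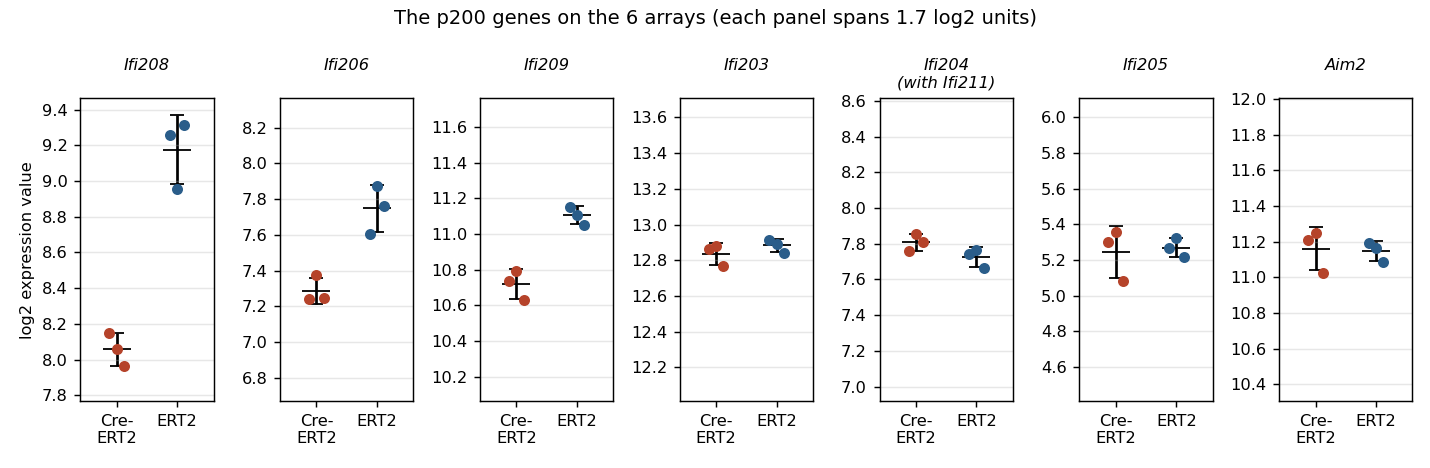
Log2 expression values of the 7 p200 genes on each array, Cre-ERT2 left of ERT2 in every panel; points are arrays, the bar is the mean and the whiskers are the SD over 3 arrays. In the first 3 panels (Ifi208, Ifi206, Ifi209) the groups are apart, by log2 differences of -1.12, -0.46 and -0.38, and in the other 4 they overlap.

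Over the 7 members the median log2 difference was -0.05, against -0.04 over all 19939 genes. In the limma fit over all genes 3 of the 7 passed an adjusted p of 0.05, all lower in Cre-ERT2, where 2.98% of all genes were called lower, 4.05% higher and 7.03% in either direction. Of the 1402 genes called, 57.6% were higher, against 67.9% of the calls after cyclic loess normalization and 39.4% with array weights, which turned the majority to lower. For the groups to be apart with Cre-ERT2 lower, as in the same 3 members, was common: this held for 20.3% of all genes, and the opposite order, seen in 0 of the 7 members, for 9.56%. The members were chosen with this contrast known, so these counts support nothing beyond the description.

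Of the other p200 genes, 4 had a probe set of their own, and none of them passed limma's adjusted p of 0.05, while 1 had an unadjusted p under it. This was Ifi213, also listed as Pydc4, whose values were 8.29, 8.31 and 8.37 in Cre-ERT2 arrays, against 8.82, 8.44 and 8.66 in ERT2 arrays. The groups did not overlap, and the log2 difference was -0.32 (SE 0.0835, limma adjusted p = 0.0577). The adjusted p was under 0.05 without ERT2 replicate 2, the lowest of the ERT2 values, where the difference was -0.42. It was likewise under 0.05 with an intensity trend, array weights, median centring or the dimmest 30% of genes left out. It was above 0.05 in the other alternatives that kept the gene, at 0.0961 with the replicate number as a block and between 0.0820 and 0.166 in the other 5 fits that leave out 1 array.

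Ifi214 was at -0.11 (SE 0.0646, adjusted p = 0.344) and Ifi207 at -0.02 (SE 0.0742, adjusted p = 0.905). Ifi202b, whose protein p202 is known as an inhibitor of AIM2 and whose expression is known to be low in C57Bl/6 mice, was at 0.13 (SE 0.0569, adjusted p = 0.217). Its log2 values were 5.68, 5.67 and 5.56 in Cre-ERT2 arrays, against 5.40, 5.54 and 5.58 in ERT2 arrays, and the groups overlapped. With array weights Ifi202b was at 0.21 and passed (adjusted p = 0.0254), and without ERT2 replicate 1 it was at 0.08 and did not (adjusted p = 0.488). Levels of Mndal and Pydc5 were not analysed here.

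In chromosomal order the lower genes stood in one run. The gene table (GRCm38.p6), used here for order only, runs Aim2, Ifi206, Ifi214, Ifi213, Ifi209, Ifi208, Ifi207, Ifi204, Mndal, Ifi211, Ifi203, Ifi202b and Ifi205. All 5 genes from Ifi206 to Ifi208 had negative log2 differences, from -1.12 to -0.11, and in 4 of the 5 the groups did not overlap. Over all genes, 68.2% had a negative difference and 20.3% were apart with Cre-ERT2 lower, so the shared sign of the 5 is not read as a result. The 5 probe sets from Ifi207 to Ifi205 lay between -0.05 and 0.13, and the groups overlapped in all 5 (0 of 5 apart). Without ERT2 replicate 1, Ifi214 was at -0.04, like the median of all genes. This division of the cluster was made after the values were seen. The windows of Ifi206, Ifi213 and Ifi208 printed above are those at 87.7% to 94.0% identity, and the remaining genes of the stretch, Ifi209 and Ifi214, are the pair at 95.7%. Within the near-copies the sizes differed, from -0.32 in Ifi213 through -0.46 in Ifi206 to -1.12 in Ifi208, and the pair at 95.7% had -0.38 in Ifi209 and -0.11 in Ifi214. Ifi203 and Ifi207, which also hold GAAATCGAAA, were at -0.05 and -0.02.

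Genes of such close sequence may share array probes. Probe sequences were not used here, so how much of one member's signal comes from another was not tested.

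The genes that flank the cluster were mostly dim. Of the 20 nearest measured genes, 10 on each side, limma called 0, where 7.03% of all genes were called. Unadjusted p was under 0.05 in 2 of them, Olfr231 (-0.09) and Olfr424 (-0.15). With array weights, or without Cre-ERT2 replicate 3, limma called 1. Most of these neighbours are olfactory receptor genes, and 16 of the 20 were among the dimmest 30% of genes and all 20 among the dimmest 50%, and a low level limits how large a fall can be measured. Their log2 differences lay between -0.15 and 0.19, with a median of -0.06. Cadm3, a cell adhesion gene next to Aim2, was at -0.08 (SE 0.0655, adjusted p = 0.510) and Olfr433, next to Ifi205, at 0.03 (SE 0.0671, adjusted p = 0.790). Both genes were chosen for their place.

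**Figure D3:**
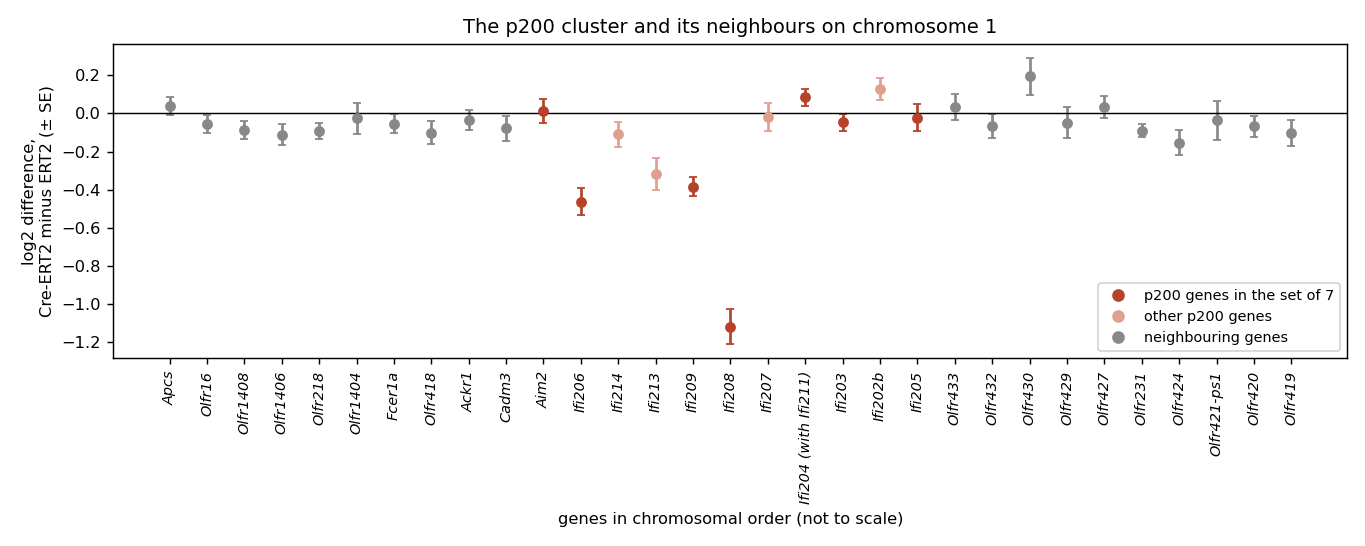
Log2 difference between Cre-ERT2 and ERT2 cells (y axis, with the moderated SE) for the p200 probe sets and the 10 nearest measured genes on each side, in chromosomal order along the x axis, which is not to scale. The differences from Ifi206 to Ifi208 lie between -1.12 and -0.11, and the neighbouring genes between -0.15 and 0.19.

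Of the other genes that interferon induces, more rose than fell. Of 38 measured members of the list, 16 rose, 3 fell and 19 did not pass, where 4.05% of all genes were called higher and 2.98% lower. Their median log2 difference was 0.18, against -0.04 over all genes. Oasl2, of the oligoadenylate synthetase-like family, had 8.85, 8.86 and 8.97 in Cre-ERT2 arrays, against 8.25, 8.22 and 8.41 in ERT2 arrays, a rise of 0.60 (SE 0.0594, limma adjusted p = 0.000523). Sp100, a nuclear body protein, rose by 0.58 (SE 0.0564), Dhx58, a regulator of RNA sensing, by 0.51 (SE 0.0881) and Parp14, an ADP-ribosyltransferase, by 0.50 (SE 0.0707). Ddx58, which encodes the cytosolic RNA sensor RIG-I and was picked once its value was known, rose by 0.47 (SE 0.0395, adjusted p = 0.000225). The 3 that fell, picked in the same way, were Ifit2 (-0.37), Oas1a (-0.19) and Gbp3 (-0.17). The count of calls was 11 without Cre-ERT2 replicate 2 or ERT2 replicate 1, and 12 after quantile normalization. Calls held in each of the 6 fits that leave out 1 array for 11 of the 19, and those that did not were Iigp1, Ifit3, Lgals3bp, Ifih1, Eif2ak2, Xaf1, Gbp3 and Oas1a.

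Among 18 measured genes of the interferon receptors and their signal chain, 6 rose and 0 fell, with a median of 0.11. Over all genes, 4.05% were called higher and 2.98% lower, and the median was -0.04. The protease gene Usp18, a brake on the type I receptor, rose by 0.65 (SE 0.0491, limma adjusted p = 0.000143). Stat2 had 10.43, 10.44 and 10.51 in Cre-ERT2 arrays, against 10.09, 10.01 and 10.12 in ERT2 arrays, a rise of 0.39 (SE 0.0452, adjusted p = 0.00134). Its partner Irf9 rose by 0.27 (SE 0.0433, adjusted p = 0.00675) and the kinase gene Jak2 by 0.27 (SE 0.0458). Irf1 rose by 0.27 (SE 0.0407), which did not pass when its probe sets were averaged (adjusted p = 0.0655). Socs1 rose by 0.21, and passed in only 1 of the 6 fits on 5 arrays, the one without Cre-ERT2 replicate 2 (adjusted p at most 0.143). These names were also picked once the values were known. Irf7 was at 0.11 (adjusted p = 0.113). Stat2 and Irf9, which encode parts of the factor that binds the interferon-stimulated response element, were higher in the same Cre-ERT2 cells in which Ifi208, Ifi206 and Ifi209 were lower.

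In the parallel DNA-sensing pathway, in which cGAS makes a second messenger that activates STING, 3 of 18 measured genes rose and 0 fell (median 0.02). The shares over all genes were 4.05% called higher and 2.98% lower, with a median of -0.04. Samhd1, a nucleotide hydrolase, had 11.73, 11.69 and 11.64 in Cre-ERT2 arrays, against 11.12, 11.05 and 11.09 in ERT2 arrays, a rise of 0.60 (SE 0.0414, limma adjusted p = 7.81e-05). Cgas rose by 0.36 (SE 0.0898, adjusted p = 0.0482) and Sting1 by 0.22 (SE 0.0548, adjusted p = 0.0472). Both calls lay near the threshold: of the 6 fits on 5 arrays, Sting1 passed in 1, without Cre-ERT2 replicate 3, and Cgas in 1, without ERT2 replicate 3, and their adjusted p reached 0.138 and 0.143. Without Cre-ERT2 replicate 1 or 2 or ERT2 replicate 2, 1 gene of the list was called.

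Of 14 measured inflammasome genes, the group with which AIM2 works, 1 rose and 1 fell, and the median was 0.04. Over all genes 7.03% were called, and with array weights 6 of the 14 were. Pycard, the adaptor, was at 0.07 (SE 0.0628, limma adjusted p = 0.511) and Casp1, the protease it activates, at 0.02 (SE 0.0887, adjusted p = 0.902). Nlrp3, a sensor of another inflammasome, had 7.80, 7.77 and 7.96 in Cre-ERT2 arrays, against 8.24, 8.21 and 8.11 in ERT2 arrays, a log2 difference of -0.35 (SE 0.0600, adjusted p = 0.0103), which did not pass with the replicate number as a block (adjusted p = 0.0614). Casp4, the mouse caspase-11 gene, rose by 0.17 (SE 0.0374, adjusted p = 0.0279), a call lost with any single array left out (up to 0.0998).

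**Figure D4:**
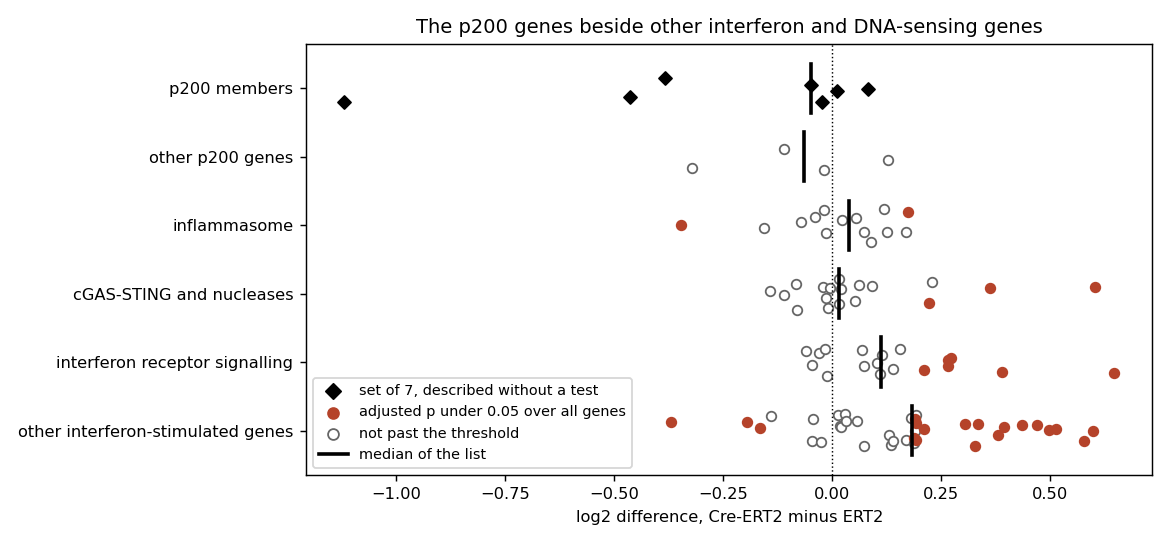
Log2 difference between Cre-ERT2 and ERT2 cells on the x axis for each measured gene of 6 lists, given down the page; vertical position within a list is arbitrary. Filled circles passed an adjusted p of 0.05 over all genes and black diamonds are the 7 p200 genes, shown as a description with their calls not marked. The p200 genes include the lowest point of these lists (Ifi208, -1.12), while the interferon-stimulated genes have a median of 0.18.

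Across the 6 arrays, the genes most like Ifi208 were found by the root mean square difference in log2 units after each gene was centred on its ERT2 mean. They were Rgs1, a regulator of G protein signalling (0.0807), the tight junction gene Cldn1 (0.124), Fcrl6, of the Fc receptor-like family (0.171), Bcor itself (0.179) and the phosphatase gene Ptpn22 (0.187). Their log2 differences lay between -1.05 in Cldn1 and -0.90 in Ptpn22. With 2 groups of arrays the measure mostly ranks genes by the size of the group difference. Rgs1 also shared the array order of Ifi208, with its lowest ERT2 value, 9.79, in replicate 2 and its lowest Cre-ERT2 value, 8.80, in replicate 3. Cldn1, Fcrl6 and Ptpn22 had their lowest values in these same replicates, and Bcor did not. Over all genes, too, these arrays deviated from their group means most alike of any pair between the groups (r = 0.31). The ranking also favours genes that are alike on each array, so the shared order is not read as particular to these genes. No other p200 gene was among these 5.

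Bcor, the targeted gene, was at 9.16 ± 0.0716 in Cre-ERT2 and 10.12 ± 0.0517 in ERT2 cells (SD, n = 3 each), 51.5% of the ERT2 level, and the labels do not give the floxed part. Of 13 measured pre-B markers 2 rose and 2 fell. Over all genes, 7.03% were called in either direction, the share to set beside each marker list here. The pre-B list mean lay between 12.27 and 12.30 over the Cre-ERT2 arrays and between 12.25 and 12.29 over the ERT2 arrays. Igll1 and Cd24a had the highest means. Dntt rose (0.86), Cd24a rose (0.19, which passed in 1 of the 6 fits on 5 arrays, without Cre-ERT2 replicate 3), and Il7r (-0.60) and Rag1 (-0.38) fell. Myeloid cells are known for high p200 expression, and 2 of 17 measured markers of that lineage passed, Lyz2 higher (0.45) and Mrc1 lower (-0.54). The mean of that list lay between 8.07 and 8.09 over the Cre-ERT2 arrays and between 8.11 and 8.12 over the ERT2 arrays. Cd68 was at 0.05. Of 10 T and NK markers Ncr1 fell by 0.23, a call lost without Cre-ERT2 replicate 1, and the markers of highest mean, Cd3e (-0.02) and Zap70 (-0.10), did not pass. The list mean lay between 7.60 and 7.64 over the Cre-ERT2 arrays and between 7.66 and 7.74 over the ERT2 arrays. Of 7 erythroid and stromal markers limma called 0, and 2, Col1a2 (-0.10) and Sparc (-0.13), had an unadjusted p under 0.05. Col1a1 (-0.08) and Col1a2 had the highest means. The list's mean lay between 8.62 and 8.65 over the Cre-ERT2 arrays and between 8.66 and 8.70 over the ERT2 arrays. Outside the fit, the brighter of 2 probe sets that name several beta-globin genes had 9.19, 9.28 and 9.08 in Cre-ERT2 arrays, against 9.44, 9.57 and 9.52 in ERT2 arrays, a difference of -0.33 (SE 0.0650) with no overlap, and the other was also at -0.33 (SE 0.0737). The groups overlapped in both alpha-globin probe sets, at -0.01 (SE 0.0400) and -0.03 (SE 0.0346), and the 2 probe sets of the myeloid marker Ly6c2, shared with Ly6c1, were at 0.11 (SE 0.0423) and 0.13 (SE 0.0499). The part of other cells in the p200 differences was not tested.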

How the data were processed

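RNA from 6 samples, 3 Cre-ERT2 and 3 ERT2 by their labels, was measured on 1-colour whole-transcript arrays. For each probe set the deposited file gives a log2 value, made by the authors with RMA in Partek 6.5, per the submitters' processing notes. Partek's settings and the genome build are not given in the sources used here. RMA corrects background and aligns the arrays' distributions, so differences are relative to the other probe sets, and array medians lay between 8.61 and 8.68. The number of arrays limits the precision, with a median SE of 0.0477.

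Of 35556 probe sets, 21789 had 1 gene symbol in the platform annotation, 1621 named several genes and 12146 stay unnamed here. For each gene the single-symbol probe set of highest mean was kept, which gave 19938 genes, and the probe set naming Ifi204 and Ifi211 was added. No filter was applied. Of these, 19856 matched the RefSeq gene table (GRCm38.p6). limma 3.58.1 (R 4.3.3; lmFit and eBayes, without trend) compared Cre-ERT2 with ERT2 arrays, with Benjamini-Hochberg adjustment over all 19939 features and a threshold of 0.05. On simulated data with these 19939 features, it called 86% of genes changed by 0.5, 42% of those changed by 0.25 and all changed by 1, with 12 false calls.

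The members and gene lists were chosen with earlier results of these data known. Named were Bcor, all p200 genes with a probe set, up to 4 called genes of largest difference per list (the 2 of smallest p where none was called), Pycard, Casp1, Cgas, Sting1, Irf7 and Irf9, the 2 markers of highest mean per marker list, called neighbours, and the 5 genes most like Ifi208; others are named as chosen later. Promoter windows were aligned with Biopython 1.88. Alternatives covered a replicate block, an intensity trend, array weights, 3 normalizations, 2 filters on dim genes, other uses of the probe sets, and each array left out.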

Additional observations from a re-analysis of the deposited data

How the results depend on the processing

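In the 16 alternatives, each of which changed 1 choice, the log2 differences of the p200 genes that could be fitted gave 164 values. All moved by less than 1 SD between arrays within the groups, but most could not have moved further. Leaving out 1 of 3 arrays cannot shift a difference that far, and the block, the intensity trend and the filters leave it unchanged. The 164 values therefore do not show stability. The filter on the dimmest 30% left out 5 of the 11 p200 probe sets, Ifi206 among them, and that on the dimmest 50% left out 7, with Ifi208 and Ifi213 added. The log2 differences lay between -1.23 and -1.05 for Ifi208 and between -0.53 and -0.36 for Ifi206. For Ifi209 they lay between -0.42 and -0.34, and for Ifi213 between -0.42 and -0.23. Those of Aim2, Ifi205 and Ifi207, all near 0, changed sign in some alternatives. Without the dimmest 30% of genes the median over the members was -0.22, since 3 of the 7 were left out by that filter. Counts of calls moved more, and the cause was not tested. Over all genes 1402 were called, 3339 with array weights and between 743 and 1341 with 1 array left out. With the replicate number as a block (replicate block) 805 genes were called, 11 interferon-stimulated genes in place of 19 and 0 inflammasome genes in place of 2. Same-numbered arrays did not deviate together (r = 0.05, -0.09 and -0.26), so the numbers were not taken as pairs. Differently numbered arrays reached r = 0.31 (Cre-ERT2 replicate 3 with ERT2 replicate 2) and r = -0.29 (Cre-ERT2 replicate 1 with ERT2 replicate 2). Whether arrays of the 2 groups belong together in another order was not tested. Interferon-stimulated genes numbered 12 after quantile normalization and between 11 and 17 with 1 array left out. Array weights called 10 genes of receptor signalling in place of 6, 6 inflammasome genes and 1 neighbour. Inflammasome calls numbered 1 with an intensity trend, median centring, the dimmest 50% of genes left out, or any 1 array left out. Calls among the neighbours numbered between 0 and 1 with 1 array left out. In the cGAS-STING list 1 gene was called with all named probe sets and between 1 and 2 with 1 array left out. Signal over background was not used here, so a small difference of a dim gene such as Ifi205 cannot be told from a compressed one.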

Other observations

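Some interferon-inducible genes were read only by probe sets that name several genes, which were outside the fit over all genes and were looked up after its results were seen. The probe set of Irgm2 and Igtp, interferon-inducible GTPases, had 9.94, 9.87 and 9.67 in Cre-ERT2 arrays, against 9.19, 9.20 and 9.33 in ERT2 arrays, a log2 difference of 0.59 (SE 0.0814) with no overlap. The probe set that names Isg15, a ubiquitin-like modifier, was at 0.02 (SE 0.0404), that of Gbp2, a guanylate-binding protein, at 0.09 (SE 0.0461), and that of Ifi47, another interferon-inducible GTPase, at -0.08 (SE 0.0424).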
